A study of Mus musculus with 8 samples.

Results

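The genes described here are the Fc receptors and Fc receptor-like genes Fcgr1, Fcgr2b, Fcgr3, Fcgr4, Fcer1g, Fcgrt, Fcrl1, Fcrl5 and Fcrla. They were chosen by symbol, as the rows of the deposited table that carry these names, and make up 9 of the 23084 genes listed. Each of the 9 symbols had exactly 1 row. The study asked what lamin A/C, a nuclear envelope protein encoded by Lmna, does in myeloid cells of the mouse. RNA was sequenced from 8 samples of spleen cells of C57BL/6 mice aged 6 to 8 weeks, sorted by flow cytometry. Both wt mice and mice that lack Lmna in myeloid cells (LmnaMyeKO) gave CD11b+Ly6C+ cells, the usual gate for monocytes, and CD11b+Ly6G+ cells, the usual gate for neutrophils, with 2 samples in each of the 4 groups. In LmnaMyeKO mice floxed Lmna is cut by a Cre driven from the lysozyme M gene, which is active in the myeloid lineage. The labels do not say whether the wt mice carried Cre or whether the samples of a group came from separate animals.

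The table holds 1 mean level per gene and no level per sample. Its lowest values resolve into whole reads of 8 libraries, which accounted for 121 of the 121 distinct values under 0.406, so each level below averages over both genotypes and both gates. No level can be assigned to wt or LmnaMyeKO cells, or to CD11b+Ly6C+ or CD11b+Ly6G+ cells, and the genotype effect was not analysed here. The mean levels of all genes summed to 25236459 reads after scaling. The size factors of the libraries lay between 0.796 and 1.05 in 7 of 8 libraries and reached 1.91 in the remaining one, which cannot be tied to a group and whose part in the levels was not tested. The 95% intervals given below are upper limits on the counting error of the mean. The spread between animals is not known, and no test between genes or groups was made.

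Fc receptors bind the constant part of antibodies and so tie antibody to the cells that act on it. Activating Fcγ receptors pair with the γ chain encoded by Fcer1g, whose tyrosine motif (ITAM) recruits the kinase Syk, whereas the inhibitory receptor encoded by Fcgr2b carries its own inhibitory motif (ITIM) and recruits phosphatases. Monocytes, macrophages and neutrophils carry several Fcγ receptors, B cells carry Fcgr2b as their Fcγ receptor, and the Fc receptor-like genes Fcrl1, Fcrl5 and Fcrla are known mainly from B cells.

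The γ chain and the activating receptors Fcgr3 and Fcgr4 stood at the top of the family and the B-cell gene Fcrl5 at its foot. Fcgr3, the low-affinity activating receptor for IgG immune complexes, had a mean signal of 13292 normalized reads (counting interval ± 89.5), the 247th highest value in the table. Fcer1g followed with 11862 ± 84.6 and rank 298. Fcgr4, an activating receptor of intermediate affinity found on monocytes and neutrophils, had 4675 ± 53.1. The inhibitory receptor Fcgr2b had 1899 ± 33.8, and Fcgrt, the neonatal Fc receptor that returns IgG and albumin from endosomes to the circulation, had 1867 ± 33.5. Fcrl1, a B-cell surface protein with tyrosine motifs in its tail, had 1606 ± 31.1. Fcrla, a relative kept inside the B cell, had 1354 ± 28.6. Fcgr1, the high-affinity IgG receptor, had 786 ± 21.8, below both of these B-cell genes. Fcrl5, a B-cell receptor-like protein with both activating and inhibitory motifs, had 391 ± 15.4. The median gene of the table had 46.8, and all 9 members lay above it. Fcgr3 was higher than 98.9% of the listed genes and Fcrl5 higher than 70.0%. Each member exceeded the next in this order by more than its counting interval except Fcgr2b over Fcgrt, which differed by a factor of 1.02.

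Levels of different genes were compared per kilobase (kb) of the longest protein-coding transcript of each gene, since longer transcripts yield more reads. On this scale Fcer1g came first with 17368 normalized reads per kb, 1.76 times Fcgr3 with 9868. The Fcer1g transcript is short, at 683 bases, against 1347 for Fcgr3. Fcgr4 had 3722 reads per kb, Fcgrt 1055, Fcrl1 811 and Fcrla 807. Fcgr2b fell to the seventh place at 536 per kb, with the longest transcript of the family at 3544 bases. Fcgr1 had 304 per kb and Fcrl5 149. Fcrl1 and Fcrla differed by a factor of 1.01, within the counting error, and every other neighbouring pair differed by more than it. The median of all protein-coding genes was 89.0 per kb.

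The place of Fcgr2b depended on the length that was used for scaling. GENCODE lists 1 protein-coding transcript for Fcgr1 and for Fcgr4, 2 for Fcer1g, 3 for Fcgr3, 4 each for Fcgr2b, Fcgrt and Fcrla, and 5 each for Fcrl1 and Fcrl5. Those of Fcgr2b span 1084 to 3544 bases and those of Fcrl1 925 to 1980 bases, whereas those of Fcer1g differ little, at 674 and 683. Per kb of coding sequence Fcer1g again led with 42980 normalized reads, ahead of Fcgr3 with 16594 and Fcgr4 with 6259. Fcgr2b then came next with 1862, above Fcgrt with 1686, Fcrl1 with 1475 and Fcrla with 1279. Fcgr1 with 648 and Fcrl5 with 219 kept the last places. The first 3 and the last 2 members were thus the same per kb of transcript and per kb of coding sequence. Of those between, only Fcgr2b changed its place relative to the others.

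**Figure D1:**
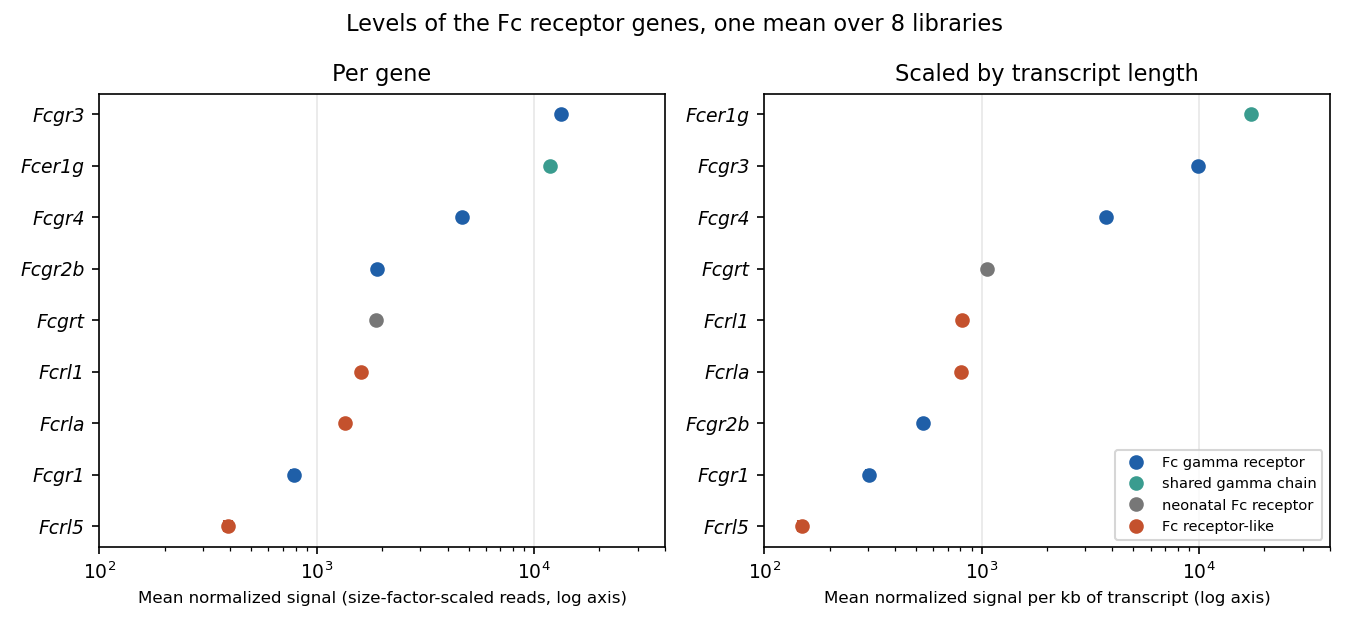
Mean normalized signal of the 9 genes (left) and the same signal per kb of the longest coding transcript (right), both on log axes. Each point is 1 mean over 8 libraries, bars are 95% counting intervals and mostly smaller than the point, and colours mark the kind of gene. Fcgr3 (13292) leads on the left and Fcer1g (17368 per kb) on the right, with Fcrl5 lowest on both.

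The 4 Fcγ receptors are encoded in 2 places, and the coding sequences of Fcgr2b and Fcgr3 are closely alike where they align. On mm10, Fcgr2b lies at chr1:170958617-170976547 on the minus strand, Fcgr4 at chr1:171018920-171029761 on the plus strand and Fcgr3 at chr1:171051174-171064935 on the minus strand. The coding sequences of Fcgr2b, with 1020 bases, and Fcgr3, with 801, were identical at 678 of 782 aligned bases, or 86.7%. The other 5 pairs of Fcγ receptors reached 64.1% to 67.3%. Since gaps were allowed, such values are high even for distant genes, and the same receptors aligned to Fcgrt, which has the fold of an MHC class I molecule, gave 57.6% to 64.8%. Fcgr2b and Fcgr3 shared a stretch of 129 identical bases in their coding sequence, against at most 14 in the other 5 pairs. This stretch is shown because a read inside it cannot be assigned to either gene by its sequence. Both lines run from 5′ to 3′ and cover 169 bases of the GENCODE coding sequence, bases 258 to 426 of Fcgr2b and bases 243 to 411 of Fcgr3. The 2 capitals in each mark the bases at which the genes differ.
Fcgr2b: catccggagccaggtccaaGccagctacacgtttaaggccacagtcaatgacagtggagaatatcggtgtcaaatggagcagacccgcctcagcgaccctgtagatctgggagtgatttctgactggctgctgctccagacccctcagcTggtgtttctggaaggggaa
Fcgr3: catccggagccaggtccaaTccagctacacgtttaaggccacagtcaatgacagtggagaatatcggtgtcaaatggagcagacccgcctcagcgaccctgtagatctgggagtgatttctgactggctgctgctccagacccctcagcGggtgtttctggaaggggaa

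In the longest coding transcript of each of the 9 genes, sequence shared with other genes was found only for Fcgr2b and Fcgr3. Of the 1298 windows of 50 bases in the longest Fcgr3 transcript, 166 (12.8%) also occurred in a transcript of another gene, and all 166 were shared with Fcgr2b and lay in coding sequence. Of the 3495 windows of Fcgr2b, 436 (12.5%) were shared. They comprised the 166 in common with Fcgr3 and 270 that lay after the coding sequence and occurred in transcripts of 144 other genes. With windows of 100 bases the shares fell to 3.53% for Fcgr3 and 6.79% for Fcgr2b. Fcgr1, Fcgr4, Fcer1g, Fcgrt, Fcrl1, Fcrl5 and Fcrla had no shared window of either length. The counts came from RSEM, which divides ambiguous reads between genes. The levels of Fcgr2b and Fcgr3 are therefore uncertain in a way not found for the other members. Shorter coding transcripts were not searched. The read length is not given in the sources used here.

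**Figure D2:**
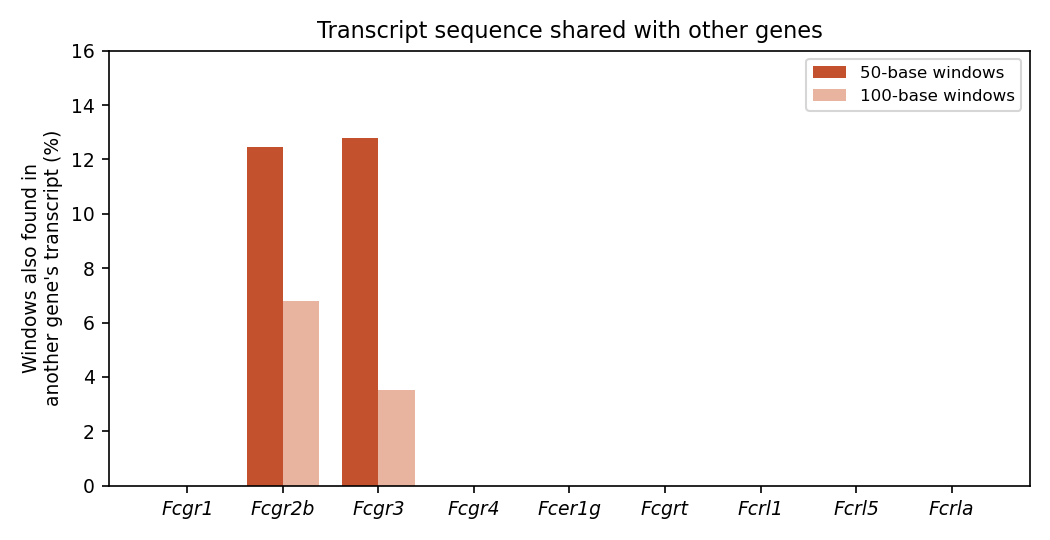
Share of all windows of 50 bases (dark) and 100 bases (light) in the longest coding transcript of each gene that also occur in a GENCODE transcript of another gene, in percent. Bars stand above 0 only for Fcgr2b (12.5% and 6.79%) and Fcgr3 (12.8% and 3.53%).

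Fcgr3 made up most of the Fcγ receptor signal. Per kb, Fcgr3 held 68.4% of the summed level of the 4 receptors and Fcgr4 25.8%. The inhibitory Fcgr2b held 3.71% and the high-affinity Fcgr1 2.10%. The order of these shares was the same per kb of coding sequence, where Fcgr3 had 65.4% and Fcgr2b 7.34%, and without length scaling, where they had 64.4% and 9.19%. The activating receptors Fcgr1, Fcgr3 and Fcgr4 together reached 13894 reads per kb, 25.9 times Fcgr2b. This ratio depended on the Fcgr2b transcript used. Fcgr2b also has a transcript of 1578 bases with the same coding length of 1020 bases, and scaled by it Fcgr2b would stand at 1203 per kb and the ratio at 11.5. Without length scaling the ratio was 9.88. The sum of the activating receptors was higher than Fcgr2b in each case, whereas Fcgr1 alone was lower than Fcgr2b in each.

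**Figure D3:**
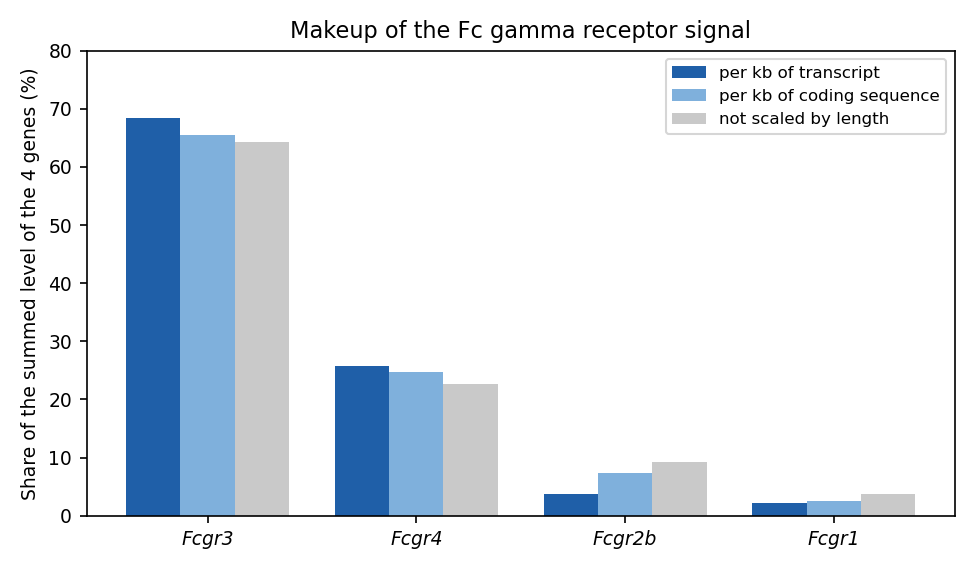
Share of each gene in the summed level of Fcgr1, Fcgr2b, Fcgr3 and Fcgr4, in percent, from 1 mean over 8 libraries, under 3 ways of scaling for length. Fcgr3 holds 64.4% to 68.4% whichever scaling is used, while the share of Fcgr2b ranges from 3.71% to 9.19%.

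Fcer1g, at chr1:171229572-171234365 on the minus strand, encodes the chain through which the activating receptors signal. Its level per kb was 1.25 times the sum of the 3 activating receptors. The relation depended on the length scale, with 1.83 per kb of coding sequence and 0.633 without scaling, so no order between the chain and its partners can be given. Among other adaptor chains with tyrosine motifs, Tyrobp, the DAP12 adaptor of many myeloid receptors, had 52364 reads per kb, above Fcer1g. Cd79a, the B-cell receptor chain, had 4065, and Cd247, the ζ chain of T and NK cells, had 121. Of the 23084 listed genes, 14312 were present at a mean signal of 10 or more. All 12 genes on the activating side of Fc receptor signalling were among them. Their median was 2289 per kb, from 310 for the adaptor Gab2 to 5578 for the Src-family kinase Fgr, and per kb Fcgr3 and Fcer1g were higher than all 12 and Fcgr4 higher than 8. By mean signal Fcgr3 was higher than 10 of the 12, Fcer1g than 7 and Fcgr4 than 3, with Syk at 22497 and Fgr at 18758 above all members. Syk had 4195 per kb.

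Of the 6 genes that act on the inhibitory side, all were present, with a median of 835 per kb. They ranged from Inppl1, which encodes the lipid phosphatase SHIP2, at 99.1 to Ptpn6, which encodes the tyrosine phosphatase SHP-1, at 7649. Inpp5d, the SHIP1 phosphatase that binds the Fcgr2b tail, had 1694 per kb, against 536 for Fcgr2b itself. Fcgr2b was higher than 3 of the 6 per kb and than 2 by mean signal.

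Fcgrt, at chr7:45092990-45103851 on the minus strand, is the only member on chromosome 7. At 1055 reads per kb it lay between Fcgr4 and Fcrl1. Its obligate partner B2m, the light chain of all MHC class I molecules, had 44897 per kb, 42.6 times Fcgrt. B2m was higher than Fcgrt on each length scale, by 64.1 times per kb of coding sequence and 20.7 times without scaling.

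The Fc receptor-like genes of B cells were lower than the Fcγ receptors as a group, but not gene by gene. The 3 B-cell genes summed to 1767 reads per kb and the 4 Fcγ receptors to 14429, a ratio of 8.17 with a counting interval of ± 0.119. The sum of the B-cell genes was therefore 12.2% of that of the Fcγ receptors. The ratio was 6.16 without length scaling. Fcgr3 and Fcgr4 were above all 3 B-cell genes on both scales. Fcgr1 was below Fcrl1 and Fcrla and above Fcrl5 on both scales. Fcgr2b lay above Fcrl1 and Fcrla by mean signal but below them per kb. Leaving Fcrla out of the B-cell sum raised the ratio to 15.0, and leaving Fcgr2b out of the Fcγ sum gave 7.86. Fcgr3 held 68.4% of the Fcγ sum and Fcgr2b 3.71%, and leaving Fcgr3 out was not run.

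Fcrl1 and Fcrla stood below the median of the B-cell markers and within their range in these sorted myeloid cells. The 10 B-cell markers were all present at a mean signal of 10 or more, as were 14312 of all 23084 listed genes. The markers had a median of 1138 reads per kb. They ranged from 131 for Ebf1, a B-lineage transcription factor, to 4065 for Cd79a. By mean signal they ran from 785 to 5923, and no defining B-cell marker was at or near 0. Fcrl1 was at 71.3% of the median per kb and Fcrla at 70.9%, each higher than 4 of the 10 markers. Fcrl5 was at 13.1% of it and higher than 1 of the 10. By mean signal, with no length scaling, Fcrl1 was at 37.0% of the B-cell marker median, Fcrla at 31.2% and Fcrl5 at 9.02%. On that scale Fcrl1 and Fcrla were each higher than 2 of the 10 markers, and Fcrl5 was below all 10. The share of B cells in the sorted samples was not tested, nor was their part in the level of Fcrl1, Fcrl5, Fcrla or Fcgr2b. In bulk RNA fewer cells of a type and less RNA per cell cannot be told apart.

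Against the monocyte markers, with a median of 1086 reads per kb, Fcgr3 stood 9.09 times higher and Fcgr4 3.43 times higher. Both values depended on length scaling. By mean signal Fcgr3 was 2.81 times the monocyte median, and Fcgr4 was at 98.9% of it, so the direction for Fcgr4 turned. Fcgr2b was at 49.3% of the median per kb and 40.2% by mean signal, and Fcgr1 at 28.0% and 16.6%. The 10 monocyte markers ranged widely, from 157 per kb for Cx3cr1 to 79128 for Lyz2. Fcgr3 was above 7 of them and Fcgr4 above 6 per kb, and above 6 and 5 by mean signal. All 10 neutrophil markers were present, with a median of 56517 and S100a9 as the highest gene of the table by mean signal, and on both scales Fcgr3 was higher than 1 of them, Ly6g. All 10 macrophage markers were present as well. Their median was 7529 per kb. Fcgr3 was above 9 of them and Fcgr4 above 3 per kb, and above 7 and 2 by mean signal. The markers of T and NK cells had a median of 184 per kb, and those of mast cells, basophils and eosinophils one of 56.9. Plasma cell markers had a median of 85.1, with Jchain at 7788, and dendritic cell markers one of 39.2. Every marker of these further cell types was present too, so presence did not tell the cell types apart.

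Other members of the wider family were mostly low. Of 10 further Fc receptors and relatives, 6 had a mean signal of 10 or more, as had 14312 of all 23084 listed genes. The median of these 10 relatives was 16.3 per kb, against 89.0 for all protein-coding genes. The highest were Fcmr, the IgM receptor, with 1591 per kb and Fcer2a, the low-affinity IgE receptor CD23 of B cells, with 990. Both exceeded Fcrl1, and Fcer2a is also one of the 10 B-cell markers. Fcer1a and Ms4a2, the α and β chains that join the γ chain in the high-affinity IgE receptor of mast cells and basophils, had 25.5 and 23.8 per kb, against 17368 for the γ chain Fcer1g. Fcrl6 was the lowest at 1.05. Fcrlb and Fcrls, the closest relatives by position, had mean signals of 7.07 and 3.85.

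**Figure D4:**
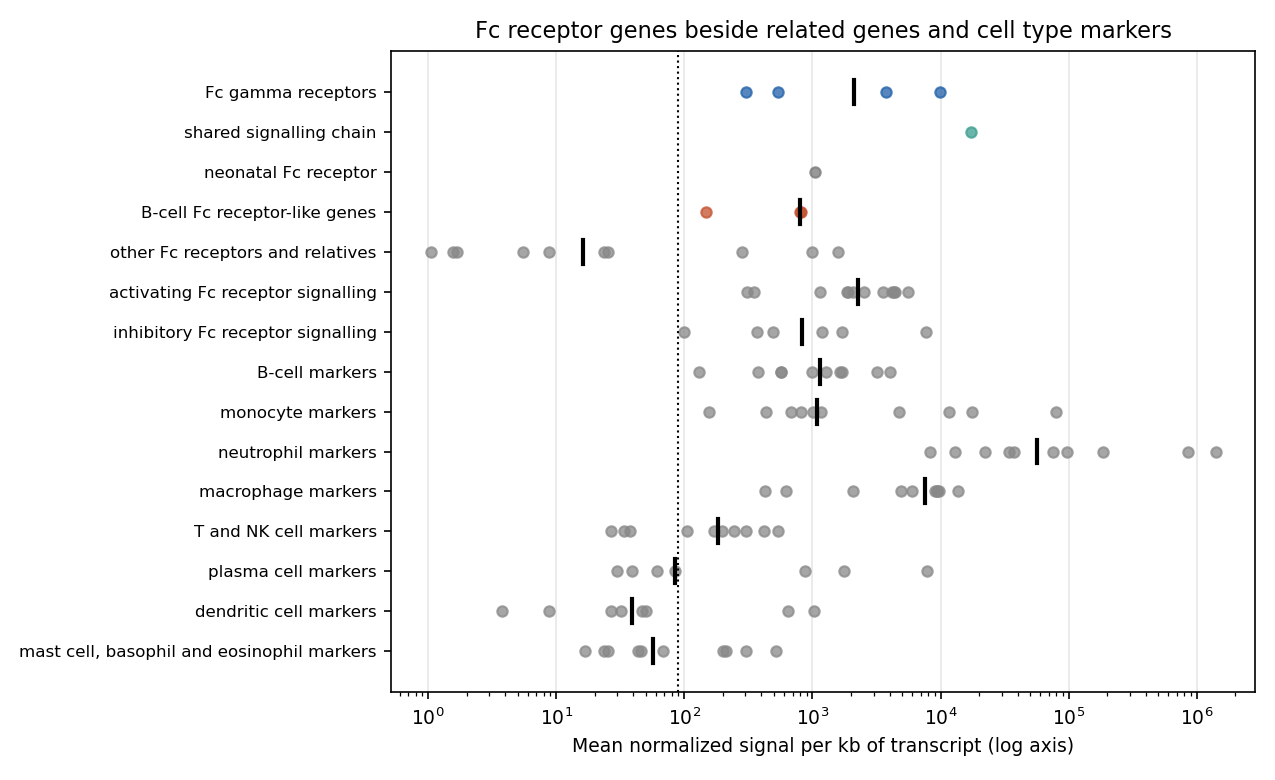
Mean normalized signal per kb of transcript (log axis) for the 9 Fc receptor genes, grouped by kind, and for lists of related genes and cell type markers. Each point is 1 gene, black bars are list medians and the dotted line is the median of all protein-coding genes, 89.0. Fcer1g (17368) and Fcgr3 (9868) lie above every B-cell marker, and Fcrl1 (811) and Fcrla (807) within their range.

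By position, 5 of the 9 genes share a region of chromosome 1 and the others lie on chromosomes 3 and 7. Fcrla, at chr1:170917576-170927583 on the minus strand, lies 31.0 kb from Fcgr2b. Fcgr2b is 42.4 kb from Fcgr4, Fcgr4 is 21.4 kb from Fcgr3, and Fcer1g follows 165 kb further on. A B-cell gene therefore sits beside the Fcγ receptors. Mean signal ran from 1354 for Fcrla through 1899 and 4675 to 13292 for Fcgr3 along these 4 neighbours. Per kb of transcript the same genes had 807, 536, 3722 and 9868, so the first step was a fall. Fcrlb, next to Fcrla, had a mean signal of 7.07. The 327 kb from Fcrlb to Fcer1g held 13 listed protein-coding genes, both ends and the 5 members included, and 4 of them had a mean signal under 10. Of all 23084 listed genes, coding or not, 14312 had 10 or more.

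On chromosome 3, Fcrl1 at chr3:87376387-87402934 and Fcrl5 at chr3:87435773-87500678, both on the plus strand, are 32.8 kb apart. They lie near Lmna, the gene cut in LmnaMyeKO mice, at chr3:88480147-88509956 on the minus strand. The gap to Lmna was 0.979 Mb for Fcrl5, with 27 listed protein-coding genes between them, and 1.08 Mb for Fcrl1, with 28. Fcgr1, at chr3:96282909-96293969 on the minus strand, lies 7.77 Mb from Lmna on its other side, with 153 such genes between. Lmna itself had a mean signal of 79.5 ± 6.92 over wt and LmnaMyeKO libraries together. By mean signal, with no length scaling, Fcrl5 was 4.92 times, Fcrl1 20.2 times and Fcgr1 9.89 times as high. Per kb of transcript Lmna had 25.2, against 149 for Fcrl5, 811 for Fcrl1 and 304 for Fcgr1. Since the Lmna level averages over both genotypes, it does not check the deletion. Strictly between Fcrls and Lmna lay 30 listed protein-coding genes, of which 8 had a mean signal under 10. Without Fcrl1 and Fcrl5 the median of these genes was 407. Of all 23084 listed genes, coding or not, 14312 had a mean signal of 10 or more. Cd5l, a macrophage gene next to Fcrl1, had 9961, against 1606 for Fcrl1.

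**Figure D5:**
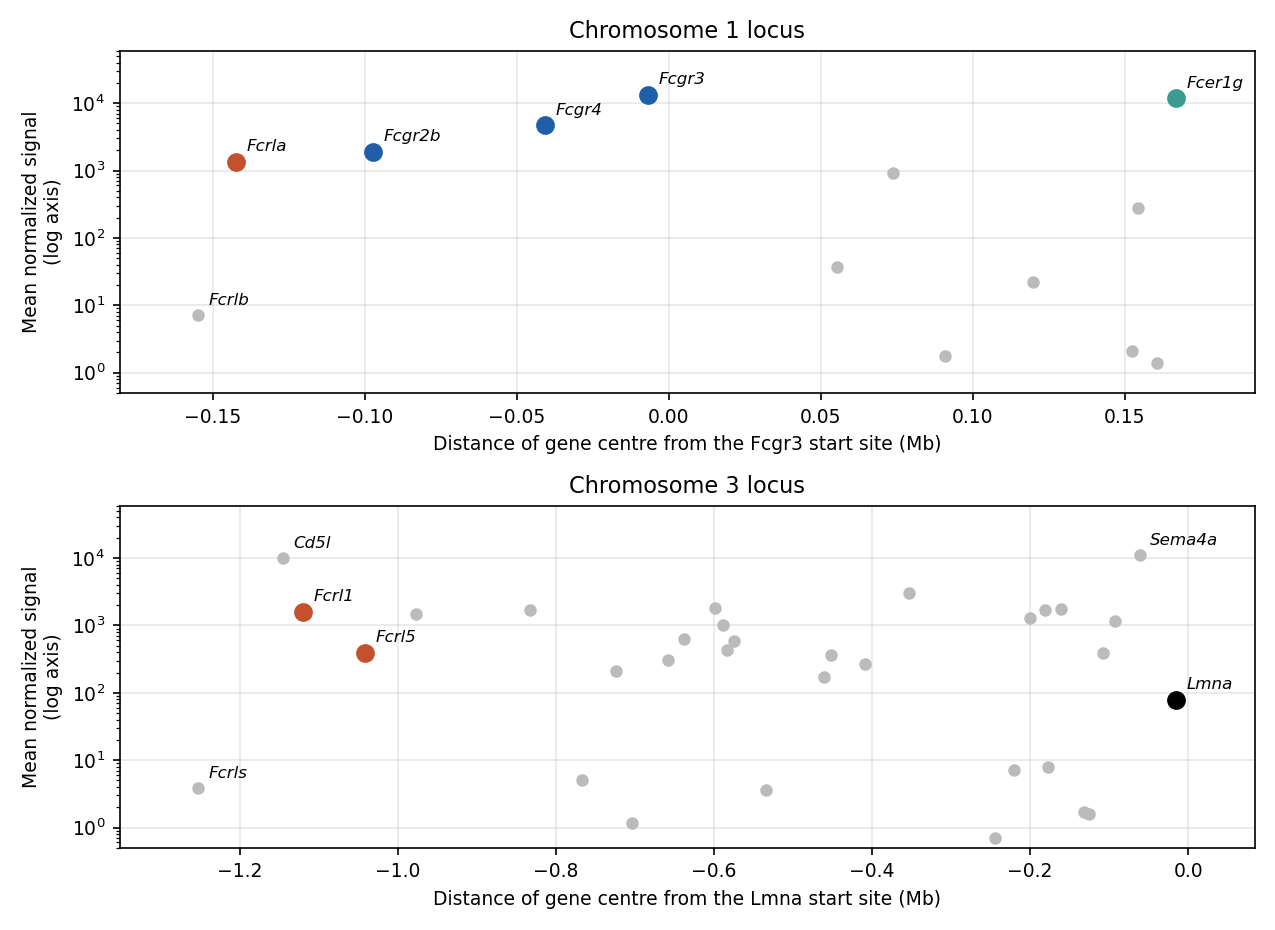
Mean normalized signal (log axis) of listed protein-coding genes by position, on chromosome 1 (top) and chromosome 3 (bottom). The horizontal axis is the distance in Mb of the gene centre from the GENCODE start of Fcgr3 (top) or Lmna (bottom). Coloured points are the Fc receptor genes, the black point is Lmna and grey points are other genes. Signal differs between neighbours by orders of magnitude, as for Cd5l (9961) and Fcrls (3.85).

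The promoters of all 9 genes, taken as 250 bases before to 50 bases after the RefSeq start on GRCm38.p6, were searched on both strands for 3 short motifs. For Fcgr3, which has a pair of listed starts a few bases apart, the first one listed was used. Its window, chr1:171059354-171059653, lies inside the Fcgr3 gene of GENCODE, which starts at 171064935 on the minus strand. The window of Fcgr2b, chr1:170976022-170976321, likewise lies inside its GENCODE gene, which starts at 170976547 on the minus strand. The bases around these GENCODE starts of Fcgr3 and Fcgr2b were not searched. The letters GAGGAA, the core bound by the myeloid and B-cell factor PU.1, occurred in 5 of the 9 promoters (Fcgr1, Fcgr3, Fcgr4, Fcrl1 and Fcrla) and in 28.3% of all 27025 promoters. The letters TTNNGNAA, the half-sites bound by C/EBP factors, occurred in 5 of 9 and in 40.7% of all. The letters CCCNNGGG, bound by the B-cell factor EBF1, occurred in Fcgr3 and Fcgrt and in 13.4% of all. The members with the PU.1 letters thus included Fcγ receptors and B-cell genes alike, and Fcgr2b, Fcer1g, Fcgrt and Fcrl5 had none in this window.

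The surroundings of the PU.1 letters are shown because the letters occurred in both kinds of gene. Whether PU.1 binds there was not tested. Each line gives 66 bases from 5′ to 3′ on the strand of the gene, with the match in capitals. They come from chr3:96293989-96294054 for Fcgr1, chr1:171059374-171059439 for Fcgr3 and chr1:170927585-170927650 for Fcrla, all on the minus strand. Those of Fcgr4 at chr1:171018874-171018939 and Fcrl1 at chr3:87376344-87376409 are on the plus strand.
Fcgr1: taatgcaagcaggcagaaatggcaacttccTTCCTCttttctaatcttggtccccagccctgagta
Fcgr3: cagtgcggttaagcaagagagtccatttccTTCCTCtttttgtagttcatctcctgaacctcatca
Fcgr4: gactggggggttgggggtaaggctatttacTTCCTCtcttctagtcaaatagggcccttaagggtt
Fcrla: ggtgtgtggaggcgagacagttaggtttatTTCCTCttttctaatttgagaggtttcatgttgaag
Fcrl1: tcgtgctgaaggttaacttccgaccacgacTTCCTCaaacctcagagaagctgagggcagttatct

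In these 5 windows the match reads TTCCTC on the strand of the gene, and its first base lies at position -55 from the start in Fcgr1, -37 in Fcrla, -22 in Fcgr4, -13 in Fcrl1 and -6 in Fcgr3. Fcrl1 has a second match at position -93, as GAGGAA. The match of Fcrl1 nearest its start overlaps a match to the C/EBP letters. The whole promoters of Fcgr3, the Fcγ receptor with the highest level, and Fcrl5, the member with the lowest, are given for comparison. They lie at chr1:171059354-171059653 on the minus strand and chr3:87435532-87435831 on the plus strand. Capitals mark matches to any of the 3 motifs, with the overlapping C/EBP and EBF1 matches of Fcgr3 at positions -146 and -143 joined in 1 run. Fcrl5 held no match to any of the 3.
Fcgr3: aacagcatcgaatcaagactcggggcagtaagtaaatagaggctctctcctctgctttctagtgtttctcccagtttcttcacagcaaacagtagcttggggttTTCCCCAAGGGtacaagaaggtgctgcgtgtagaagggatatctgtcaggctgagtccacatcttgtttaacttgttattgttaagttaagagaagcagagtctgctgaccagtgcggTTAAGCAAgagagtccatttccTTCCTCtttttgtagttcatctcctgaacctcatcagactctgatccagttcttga
Fcrl5: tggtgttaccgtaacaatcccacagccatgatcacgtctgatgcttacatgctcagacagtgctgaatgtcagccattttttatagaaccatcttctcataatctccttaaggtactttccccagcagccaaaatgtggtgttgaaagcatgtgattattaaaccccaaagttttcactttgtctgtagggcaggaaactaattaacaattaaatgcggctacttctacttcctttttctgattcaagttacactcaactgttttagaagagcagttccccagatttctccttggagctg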

How the data were processed

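RNA was sequenced from 8 sorted spleen samples in 4 groups of 2. According to the labels and methods, reads were checked with FastQC 0.11.5 and Picard 1.119, trimmed with cutadapt 1.14, aligned to mm10 with STAR 2.5.2b and estimated per gene with RSEM 1.3.0 on GENCODE M12. The authors deposited 1 table from DESeq2 1.20.0. It holds the mean signal per gene after division by size factors, which was used here, and the authors' own wt against LmnaMyeKO comparison (fold changes, their errors and p-values), which was not used. The deposited signal therefore has no replicate values, and no test was made. The authors listed only genes with reads in at least 2 libraries.

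The number of libraries behind the mean and their size factors were recovered from the 1268 genes under 0.406, as sums of whole reads within 4e-06, and the procedure was tested on simulated data. The standard error from counting is at most the square root of the level times the worth of 1 read in the shallowest library (0.157), if counting is Poisson. Intervals cover counting error only.

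Positions, transcripts and lengths came from GENCODE M21 on the same build, which held 23004 of the 23084 identifiers, and promoters from RefSeq. Groups followed the sample titles, because the label for the cell marker is the same, CD11b+Ly6C+, in all samples. The 9 members and the lists were chosen with earlier results of these data known. The text names all members, Lmna, and the highest and lowest gene of a list or one that a result on a member turns on. Cd5l, beside Fcrl1, was named after its value was seen. Protein sequences were not used here. Python 3.11.15, pandas 2.3.3, Biopython 1.88 and matplotlib 3.10.9 were used.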

Additional observations from a re-analysis of the deposited data

How the results depend on the processing

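The ratio of Fcγ receptors to B-cell genes, 8.17 per kb of transcript, was 8.53 per kb of coding sequence, 6.16 without scaling, 7.86 without Fcgr2b and 15.0 without Fcrla. The other ratios were added after seeing the data. Activating receptors over Fcgr2b went from 25.9 to 12.6 with coding length, 9.88 without scaling and 11.5 with the shorter Fcgr2b transcript. Fcer1g over the activating receptors went from 1.25 to 1.83 and 0.633, and B2m over Fcgrt from 42.6 to 64.1 and 20.7. Fcgr4 over the monocyte marker median was 3.43 per kb of transcript, 2.26 with coding length, 0.989 without scaling and 1.65 over the mean of the log2 levels. For Fcgr3 the same values were 9.09, 6.00, 2.81 and 4.37. Moved here means by more than the counting interval. Each member has 1 row, so summing the rows of a symbol could not change its level, and all 9 percentiles stayed within that interval. Counting only genes with a mean signal of at least 10, which all 9 members reach, could only lower the percentiles. It moved all 9, with Fcrl5 then above 51.5% of genes in place of 70.0%.

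Leaving out a replicate was not run, since the table gives 1 mean per gene. No paired analysis was possible because the mean carries no replicate numbers. The counting intervals are narrow, at most 3.93% of the level for the 9 members. The spread between samples is not known.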
